A study of Mus musculus with 12 samples.

Results

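Tumours grown from 344SQ, a highly metastatic mouse lung tumour line, were compared with tumours grown from 393P, a non-metastatic line, over all genes measured by a probe set with a single gene symbol. The arrays were chosen by their labels: 4 of 344SQ tumours and 4 of 393P tumours, 8 of the 12 arrays in the study. The other 4 arrays, of tumours from the line 393LN, entered only the estimate of the spread. According to the labels, both lines came from mice of 1 engineered genotype that includes p53R172H∆g/+. The mouse of origin of the controls thus carried the same engineered alleles as that of the metastatic group. Which alleles the lines kept was not measured. The line 393P was a mass culture of a primary lung tumour of mouse 393, and 344SQ a mass culture of a subcutaneous growth of mouse 344. Each group was therefore 1 line from 1 mouse, and metastatic potential, mouse of origin, site of origin and line cannot be told apart. Neither the age of the host mice nor a treatment was named, and nothing in the labels said that the 4 tumours of a line grew in separate animals, so the p-values below measure the spread between these samples, which may be technical. The lines were grown as tumours in syngeneic mice, and the RNA of each array holds cancer cells together with host vessels, fibroblasts and blood cells.

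p53R172H is a missense form of the tumour suppressor p53, and the mice are a model of metastatic lung adenocarcinoma. Epithelial cells hold their shape through adherens and tight junctions, sorted membrane transport and surface proteases, and transcriptional repressors of the Zeb and Snail families, which bind E-box sequences, can switch these genes off. Foxa2, Hnf4a, Gata6 and Pdx1 are transcription factors of the endoderm, the embryonic layer that forms the lung, stomach, pancreas and gut, while Nkx2-1 is the factor that marks lung and thyroid.

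All values below are log2 levels, log2 of the deposited intensity plus 16, on which a gene with no signal reads 4.09. Changes are differences of these levels, 344SQ minus 393P, each with its standard error (SE) from a limma fit in which every line has 4 arrays, and folds are understated for dim genes. A gene was called when its p-value, adjusted over all genes by the Benjamini-Hochberg method, was under 0.05. The epithelial identity of both tumour types was visible in Krt8, a keratin of simple epithelia, which read 14.01, 13.92, 13.96 and 14.01 in 344SQ and 13.77, 14.07, 14.05 and 14.02 in 393P. Cdh1, the adherens junction protein E-cadherin, read 13.50 to 13.70 on 3 arrays of 344SQ and 13.26 on the fourth, against 13.18 to 13.52 in 393P. These groups overlapped, and the difference of Cdh1 was 0.12 ± 0.13 (adjusted p 0.635). Nkx2-1, the lung lineage factor, read 4.09 to 4.57 in 344SQ and 4.09 to 4.31 in 393P, at or just above the floor in both. The lung identity given by the origin of the lines was thus not visible in this marker on any of the 8 arrays.

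Of the 8 arrays, 2 stood apart from the others of their line. On 393P replicate 1 the ratio of the 3′ to the 5′ probe set of beta-actin, a sign of RNA quality, was 1.47, against 1.04 to 1.19 on the other 11 arrays of the study, and 143 genes lay far below the other 3 arrays of the line by Dixon's test. 344SQ replicate 4 had 27 genes at least 4-fold below the other 3 arrays of its line, 4 of them in a block around the tumour suppressor Cdkn2a and 13 of them genes induced by interferon. Of the 118 called genes named below that have other probe sets, 54 had no other that was called, among them Apob, Hook1, Pdx1, Golim4 and Kcnk5. These counts leave out Ano10, Bmp8b, Clcn6, Htra2 and Sftpb. Where leaving out 1 array ended a call that is named below, the gene is listed with the highest adjusted p of the 8 fits that each leave out 1 array.

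Between 344SQ and 393P, 1907 of 18193 genes were called (10.5%), 884 higher (4.86%) and 1023 lower (5.62%) in 344SQ, and the median change of all genes was -0.001. At least 2-fold changes were called for 639 genes (3.51%), 278 higher (1.53%) and 361 lower (1.98%). All 4 values of one line lay above all 4 of the other for 3045 genes (16.7%), 1477 of them higher (8.12%) and 1568 lower (8.62%) in 344SQ. Without 344SQ replicate 2 or 3 the higher genes numbered 581 and 565, and without 393P replicate 2 or 3 the lower genes numbered 664 and 654. Every share of a gene family given below is to be read against these percentages. In whole tumours, fewer cells of a type and less RNA per cell cannot be told apart, which holds for all values that follow.

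**Figure D1:**
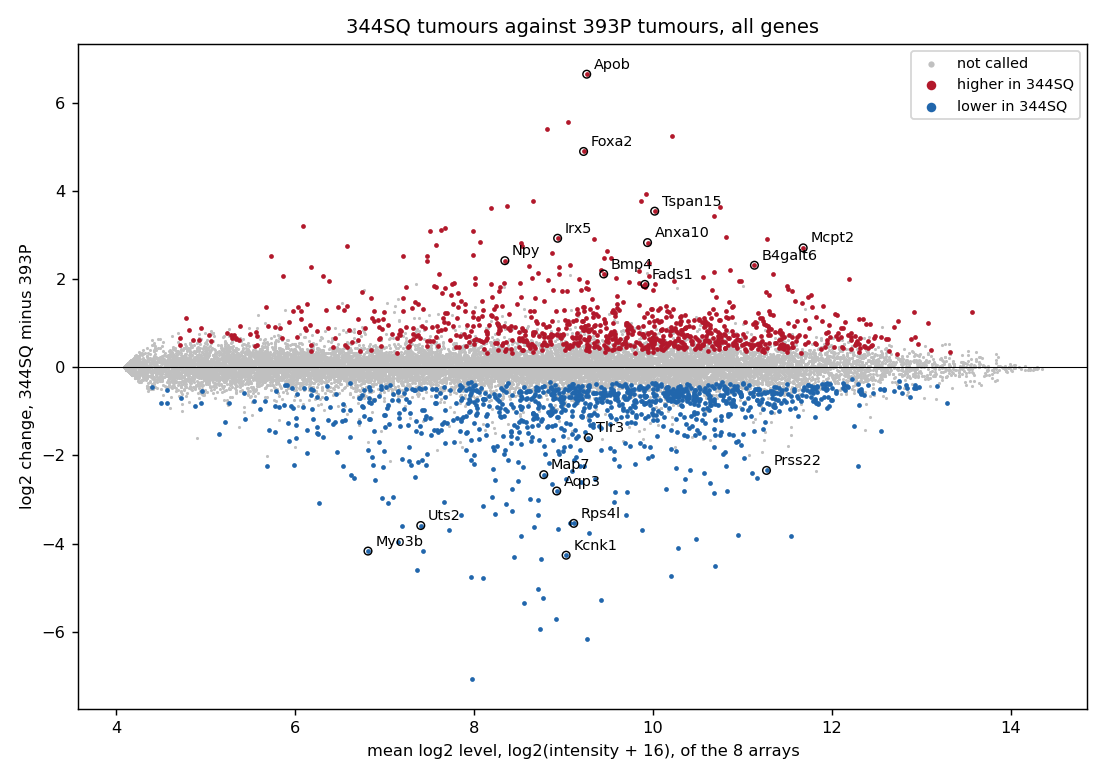
Change of each of the 18193 genes (344SQ minus 393P, log2) against its mean log2 level over the 8 arrays. Genes called higher in 344SQ are red, genes called lower blue, others grey; the genes with labels are described in the text, from Apob (6.64) and Foxa2 (4.89) down to Kcnk1 (-4.26).

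The largest fall of all was that of Esrp1, an epithelial splicing factor, with 4.50, 4.72, 4.33 and 4.25 in 344SQ against 11.18, 11.66, 11.72 and 11.49 in 393P (-7.06 ± 0.24, adjusted p 6.17e-09). Beyond keratins, claudins and other junction genes, further large falls included genes of membrane transport, motor proteins and lipid enzymes of epithelia. Kcnk1, a background potassium channel, read 6.0, 7.21, 6.35 and 8.02 in 344SQ and 10.82, 11.13, 11.26 and 11.44 in 393P. Myo3b, a class III myosin of actin protrusions, read 4.90, 4.63, 4.72 and 4.68 against 8.99, 8.81, 8.74 and 9.07. Cers3, which makes ceramides with very long acyl chains for the skin barrier, read 5.06, 5.39, 5.12 and 5.83 against 9.29, 9.25, 9.65 and 9.86. In each of them all 344SQ values lay more than 2 units below the lowest 393P value, Myo3b close to the floor. The folds were 19.2 for Kcnk1 (change -4.26 ± 0.38, adjusted p 2.99e-05), 18 for Myo3b (-4.17 ± 0.20, adjusted p 1.32e-07) and 17.9 for Cers3 (-4.16 ± 0.22, adjusted p 4.26e-07).

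Macc1, known as a regulator of the receptor tyrosine kinase Met and named for its link with colon cancer metastasis, was low in the metastatic line. It read 5.30, 5.28, 5.11 and 4.96 in 344SQ and 9.41, 9.03, 9.32 and 8.77 in 393P, without overlap and 15.7-fold lower (-3.97 ± 0.20, adjusted p 2.73e-07). Atp2c2, a Golgi calcium pump, read 5.75, 5.87, 5.80 and 6.08 against 9.31, 9.47, 9.61 and 9.85, a change of -3.68 ± 0.27. Hook1, a linker of vesicles to microtubules, read 7.28, 7.30, 7.34 and, on replicate 4, 5.50, against 10.37 to 10.61 in 393P, a change of -3.63 ± 0.37. Uts2, the peptide urotensin 2, read 5.39 to 5.83 against 8.94 to 9.58, and Ly6d, a surface protein of keratinocytes, 6.04 to 7.42 against 10.13 to 10.75. None of these pairs overlapped. Amot, a scaffold of tight junctions and Hippo signalling, gave -4.6 ± 0.36 on its brightest probe set, but its other probe sets, with means of 6.8, gave -0.21 (adjusted p 0.62) and -0.28 (adjusted p 0.59), so only this probe set of the gene changed. Cldn6, an embryonic claudin, differed within 344SQ itself: it read 6.93, 7.48 and 7.03 on 3 arrays and 12.30 on replicate 4, just under the 12.39 to 13.23 of 393P.

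Among the largest rises were genes of secretory and absorptive gut-type epithelia and of neural cells. Cubn, the cubilin receptor that takes up vitamin B12 with intrinsic factor in the gut and proteins in the kidney, read 10.14, 9.96, 9.93 and 9.63 in 344SQ and 6.86, 7.22, 7.31 and 7.24 in 393P. Anxa10, an annexin of the gastric mucosa, read 10.80, 11.67, 11.99 and 10.96 against 7.78, 9.34, 8.68 and 8.32. Dmbt1, a secreted scavenger protein of mucosal surfaces, read 8.42, 10.15, 9.67 and 8.80 against 4.77, 6.80, 7.05 and 5.76. The arrays of 393P varied more in Dmbt1 (SD 1.04) than in Cubn (SD 0.20), yet none of the 3 genes overlapped between the lines. Changes were 2.76 ± 0.15 for Cubn (6.76-fold, adjusted p 5.60e-07), 2.83 ± 0.32 for Anxa10 (7.09-fold, adjusted p 1.64e-04) and 3.17 ± 0.47 for Dmbt1 (8.97-fold, adjusted p 1.21e-03).

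Tspan15, a tetraspanin partner of the protease ADAM10, read 12.29, 11.71, 11.63 and 11.52 in 344SQ against 6.92, 8.5, 8.56 and 9.02. Maob, which oxidises monoamines, read 10.28, 9.76, 9.63 and 8.48 against 6.30, 6.64, 6.36 and 6.45. Auts2, a nuclear protein of developing neurons, read 9.99, 9.91, 10.01 and 9.81 against 7.32, 7.03, 7.36 and 6.75. All 3 were higher on every 344SQ array, by 11.6-fold (3.54 ± 0.47), 8.56-fold (3.10 ± 0.29) and 7.04-fold (2.82 ± 0.15). Golim4, a Golgi protein of endosome recycling, rose 7.77-fold (2.96 ± 0.21) and Arl14, a small GTPase, 7.12-fold (2.83 ± 0.22). Zfhx4, a large zinc finger and homeobox factor, rose 8.61-fold (3.11 ± 0.36). Myrf, a transcription factor that is cut free from the membrane, read 12.02 to 12.66 against 8.16 to 9.50, 10.7-fold higher (3.42 ± 0.79, adjusted p 0.0163).

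**Figure D2:**
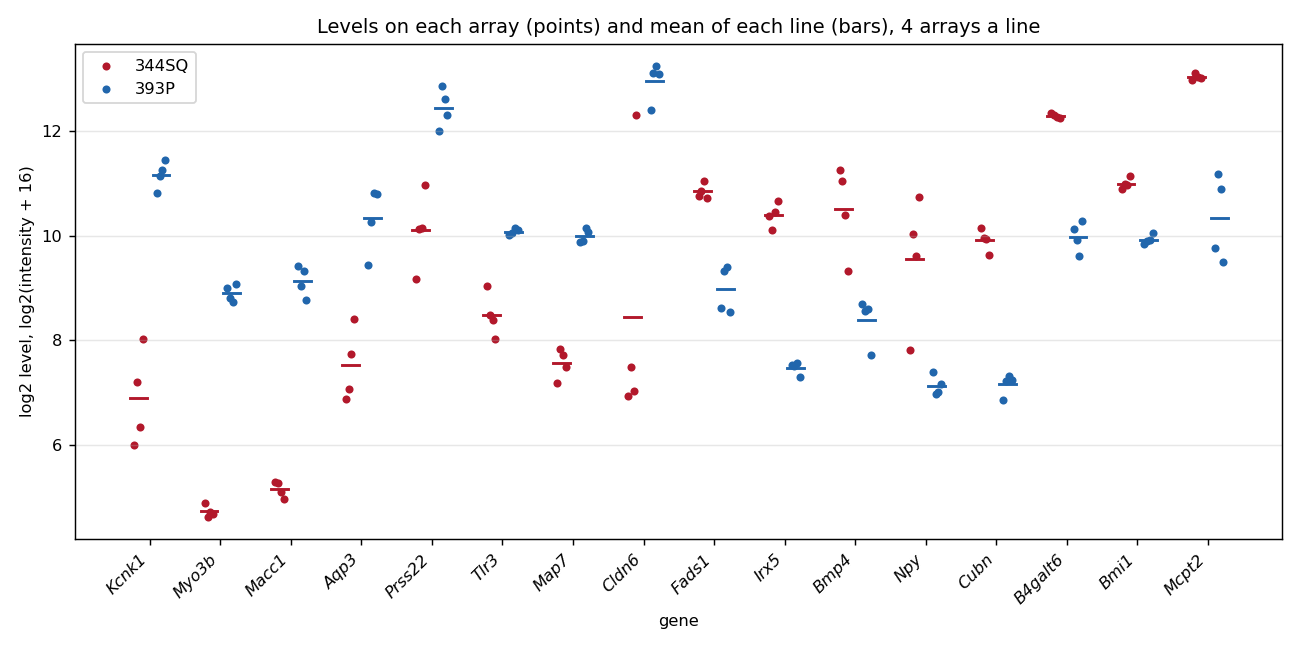
Log2 level of 16 genes on each array, 4 arrays of 344SQ (red) and 4 of 393P (blue), one column a gene; the bar is the mean of a line. The groups are apart in all 16, and Kcnk1, Npy and Cldn6 vary most among the 344SQ arrays.

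Promoter sequence was set beside these changes because the repressor Zeb1 itself was higher in 344SQ on its brightest probe set (10.09 to 10.33 against 8.71 to 9.15, 1.29 ± 0.14, adjusted p 1.22e-04). Of its 3 other probe sets 1 gave 1.34 (adjusted p 0.0476), and the others gave 0.05 (0.95) and 0.22 (0.259). RefSeq promoter windows of GRCm38.p6 were matched to 14367 of the genes (18006 windows), and the 250 bases before each transcription start were searched on both strands. The E-box CACCTG, which reads CAGGTG on the other strand, was in 17.2% of all windows. It was in 212 of 1022 windows of genes called lower (20.7%), in 100 of 343 of those at least 2-fold lower (29.2%) and in 40 of 94 of those at least 4-fold lower (42.6%). Among called higher genes it was in 14.5% of windows, in 17.5% at 2-fold and in 11 of 50 windows at 4-fold (22.0%). The share thus grew with the size of the fall and less with the size of the rise. The forkhead motif TGTTTAC, or GTAAACA on the other strand, of the Foxa family, was in 2.6% of all windows and in 4 of 50 windows of genes at least 4-fold higher (8.0%). The AP-1 motif TGACTCA, or TGAGTCA on the other strand, was in 4.0% of all windows, in 13 of 94 at least 4-fold lower (13.8%) and in 5 of 50 at least 4-fold higher (10.0%). Median GC content was 57.6% over all windows, 57.4% in the windows at least 4-fold lower and 54.0% in those at least 4-fold higher. The median number of CpG, a C followed by a G, was 12 per window over all windows. It was 6 in the windows at least 4-fold lower and 6 in those at least 4-fold higher, so these sets differed from all windows in composition. Windows of 1 gene can overlap, the shares were not tested, and a match is a run of letters, not a bound site.

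The promoters of 4 genes that were lower and 2 that were higher are given as examples, not as a sample of either group. All 4 lower genes shown held an E-box, while among all windows at least 4-fold lower only 40 of 94 did. Capitals mark the E-box in either orientation, each window runs 5′ to 3′ on the strand of its gene and ends at the base before the start. Ap1m2, an adaptor subunit that sorts proteins to the basolateral membrane (chr9:21312334-21312583, minus strand), held 4. Mapk13, the p38 delta kinase, chosen after its values were seen (chr17:28769067-28769316, plus strand), held 3. Rab25, a GTPase of apical recycling (chr3:88548280-88548529, minus strand), held 2. Serpinb5, the epithelial serpin maspin (chr1:106860925-106861174, plus strand), held 1. Apob, the structural protein of lipoproteins and among the largest rises (chr12:7977427-7977676, plus strand), also held 1. Vsig1, a junction protein of the stomach and higher in 344SQ (chrX:140907358-140907607, plus strand), held 0.
Ap1m2: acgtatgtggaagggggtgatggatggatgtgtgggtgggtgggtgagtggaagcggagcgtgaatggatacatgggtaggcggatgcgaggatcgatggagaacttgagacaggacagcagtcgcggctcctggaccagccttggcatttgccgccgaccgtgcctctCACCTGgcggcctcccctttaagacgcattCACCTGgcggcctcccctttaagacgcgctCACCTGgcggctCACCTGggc
Mapk13: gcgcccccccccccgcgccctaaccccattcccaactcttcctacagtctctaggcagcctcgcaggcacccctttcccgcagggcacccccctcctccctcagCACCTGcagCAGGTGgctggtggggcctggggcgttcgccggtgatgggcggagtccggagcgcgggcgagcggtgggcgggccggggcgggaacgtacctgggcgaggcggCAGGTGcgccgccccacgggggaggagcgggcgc
Rab25: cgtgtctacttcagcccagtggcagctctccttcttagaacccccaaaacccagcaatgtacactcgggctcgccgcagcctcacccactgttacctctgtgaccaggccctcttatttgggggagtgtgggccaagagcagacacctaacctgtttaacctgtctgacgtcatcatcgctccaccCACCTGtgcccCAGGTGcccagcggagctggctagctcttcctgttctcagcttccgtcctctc
Serpinb5: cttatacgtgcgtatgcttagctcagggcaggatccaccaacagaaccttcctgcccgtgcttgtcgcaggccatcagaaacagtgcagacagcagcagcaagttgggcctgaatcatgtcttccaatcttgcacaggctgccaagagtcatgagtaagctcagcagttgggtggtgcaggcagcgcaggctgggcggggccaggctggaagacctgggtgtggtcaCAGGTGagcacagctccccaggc
Apob: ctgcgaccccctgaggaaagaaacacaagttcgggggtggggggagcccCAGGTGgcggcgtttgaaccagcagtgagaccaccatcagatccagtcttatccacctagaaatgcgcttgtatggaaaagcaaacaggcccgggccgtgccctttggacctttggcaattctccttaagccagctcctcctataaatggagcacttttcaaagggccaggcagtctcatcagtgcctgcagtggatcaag
Vsig1: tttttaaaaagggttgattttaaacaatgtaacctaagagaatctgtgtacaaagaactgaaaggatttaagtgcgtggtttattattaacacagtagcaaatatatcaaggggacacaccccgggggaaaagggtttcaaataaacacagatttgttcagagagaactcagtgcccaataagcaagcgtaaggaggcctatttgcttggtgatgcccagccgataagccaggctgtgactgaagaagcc

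Ap1m2 read 6.0, 6.52, 6.14 and 6.52 in 344SQ against 10.03, 10.82, 10.87 and 10.65 in 393P. Mapk13 read 6.75, 6.73, 6.98 and 6.72 against 9.40, 10.28, 10.63 and 9.91, and Serpinb5 read 7.49, 7.14, 6.89 and 6.86 against 10.02, 10.97, 11.05 and 11.05. All were lower on every 344SQ array, by -4.30 ± 0.20, -3.26 ± 0.25 and -3.68 ± 0.29. The other 3 probe sets of Serpinb5 gave changes of -2.88, -2.15 and -2.90. Apob was 99.9-fold higher with 1 E-box in its window (6.64 ± 0.60), although its other probe set, with a mean of 6.67, gave 0.35 (adjusted p 0.411). An E-box was thus found on both sides of the comparison.

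In lipid metabolism, some of the genes that make unsaturated fatty acids were higher in 344SQ. Of 25 genes of fatty acid synthesis and desaturation 6 were called higher (24.0%) and none lower by limma (8 and 1 with an unadjusted p under 0.05), with a list median of 0.19. Fads1, the delta-5 desaturase of polyunsaturated fatty acids, read 10.76, 10.86, 11.05 and 10.71 in 344SQ and 8.62, 9.32, 9.40 and 8.54 in 393P. The groups were more than 1 unit apart, a 3.67-fold difference (1.88 ± 0.32, adjusted p 3.25e-03), while a dimmer probe set gave 0.26 (adjusted p 0.29). Fads3, a related desaturase, rose 2.03-fold (1.02 ± 0.20), and Elovl5, which elongates polyunsaturated fatty acids, rose 1.46-fold (0.55 ± 0.12) with 12.02 to 12.25 against 11.37 to 11.64. Scd1, which puts the first double bond into stearate, read 12.40, 12.14, 12.98 and 11.84 against 11.82, 10.98, 10.41 and 10.17, a rise of 1.5 ± 0.35 with its lowest 344SQ value just above its highest 393P value. Fasn, the fatty acid synthase, did not pass (0.24 ± 0.12, adjusted p 0.26). The calls of Scd1 (highest adjusted p 0.0585, without 344SQ replicate 3, 393P replicate 3 or 393P replicate 4), Hacd1 (0.0637, without 344SQ replicates 2 or 3 or 393P replicate 4) and Acsl3 (0.123, without any of the 8 arrays) depended on single arrays.

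Of 20 genes of cholesterol synthesis only Sqle, squalene epoxidase, was called, at -0.49 ± 0.12, and it lost its call on leaving out any of 4 arrays (adjusted p up to 0.0607). Of 23 genes of fatty acid oxidation and PPAR targets 3 were called higher (13.0%) and 1 lower, with a median of 0.11 (7 and 2 with an unadjusted p under 0.05). Pparg, the nuclear receptor of fat storage, read 8.63, 8.48, 8.64 and 8.39 against 7.82, 7.66, 7.63 and 7.98, without overlap (0.76 ± 0.15, adjusted p 5.99e-03). Apoc1, a small apolipoprotein made by liver and macrophages, went against Apob: it read 8.30, 8.21, 9.81 and 7.79 in 344SQ and 11.17, 10.53, 10.28 and 10.46 in 393P, 4.24-fold lower (-2.08 ± 0.35, adjusted p 2.79e-03). Besides Apob and Apoc1, no other of the 21 lipoprotein genes tested was called. Markers of adipocytes, which also make lipid genes, had none of 11 called by limma (1 with an unadjusted p under 0.05), and their mean level was 7.29 to 8.87 on the 344SQ arrays and 7.33 to 8.17 on those of 393P.

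The retinoid pathway carries vitamin A from blood to the nuclear receptors of retinoic acid. In 344SQ the carrier Rbp4 was called higher, and single members, Stra6, Aldh1a2, Crabp2 and Rarg, were called lower. Of a list of 22 genes, which does not hold Rbp4, 4 were called lower and 1, the binding protein Rbp2, higher. The list as a whole had a median of -0.03, with 11 of its 22 genes above 0. Rbp4, the plasma carrier of retinol, read 12.59, 12.95, 13.02 and 12.39 against 10.37, 9.82, 9.24 and 9.87, 7.55-fold higher (2.92 ± 0.70, adjusted p 0.0201). Stra6, the membrane receptor of Rbp4, read 10.28, 9.60, 9.79 and 9.43 against 10.69, 11.68, 11.11 and 11.35 (-1.43 ± 0.40, adjusted p 0.0394). Aldh1a2, which makes retinoic acid, read 10.06, 9.34, 8.94 and 7.66 against 11.06, 11.04, 10.49 and 10.58 (-1.79 ± 0.50, adjusted p 0.0408). None of these 3 pairs overlapped although Aldh1a2 varied within 344SQ, with replicate 4 lowest. Crabp2, which hands retinoic acid to its receptor, read 5.44 to 5.56 against 5.97 to 7.43 (-1.49 ± 0.35), and Rarg, the gamma receptor, 9.70 to 10.28 against 10.46 to 10.64 (-0.60 ± 0.15). Rbp2, the retinol binder of the gut, rose by 0.94 ± 0.19 from a dim level. These calls were fragile apart from Rbp2: leaving out 1 array ended those of Rbp4 (3 arrays, highest adjusted p 0.0612), Stra6 (6 arrays, 0.108), Aldh1a2 (7 arrays, 0.0992), Crabp2 (3 arrays, 0.0595) and Rarg (4 arrays, 0.0631).

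In carbohydrate metabolism the calls went both ways, with 3 genes higher and 3 lower of 20 for glycogen and glucose production (30%). Fbp2, the muscle form of fructose bisphosphatase, read 9.83, 9.96, 9.68 and 10.19 in 344SQ and 7.94, 8.15, 8.29 and 8.34 in 393P, 3.33-fold higher (1.73 ± 0.18, adjusted p 9.80e-05). Pgm1, the phosphoglucomutase that links glycogen to glycolysis, read 9.93, 9.89, 10.01 and 9.02 against 10.78, 11.36, 11.47 and 11.37, 2.89-fold lower (-1.53 ± 0.22). Rpia, the ribose isomerase of the pentose phosphate pathway, read 10.34, 10.16, 10.13 and 9.83 against 11.79, 11.99, 11.91 and 11.82, 3.39-fold lower (-1.76 ± 0.14, adjusted p 1.08e-05) and the only call among 12 genes of that pathway. The groups were apart in all 3, and Pgm1 was lowest on 344SQ replicate 4. Gyg, the primer of glycogen synthesis, rose by 0.69 ± 0.11, and Ppp1r3b, which guides a phosphatase to glycogen, fell by 0.63. Skeletal muscle markers had none of 18 called by limma (0 with an unadjusted p under 0.05), with mean levels of 7.11 to 8.14 in 344SQ and 7.48 to 8.15 in 393P.

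Serine and one-carbon metabolism had 3 of 18 genes lower and none higher by limma (6 and 0 with an unadjusted p under 0.05; median -0.20). Psph, the last enzyme of serine synthesis, read 10.03, 10.01, 9.84 and 9.70 against 10.89, 10.65, 10.68 and 10.84 (-0.87 ± 0.12, adjusted p 6.86e-04). Slc25a32, the folate carrier of mitochondria, fell by 0.70. Phgdh, the first enzyme of the same pathway, did not move with them (0.08 ± 0.24, adjusted p 0.898), nor was Shmt2 called (-0.04 ± 0.13). Mthfd2 was called at -0.75 ± 0.21 with overlapping values, and the call ended on leaving out any of 7 arrays (adjusted p up to 0.121). Of 81 subunits of oxidative phosphorylation 8 were lower (9.9%, against 5.62% of all genes) and 1 higher (1.2%, against 4.86%) by limma. With an unadjusted p under 0.05, 18 were lower and 2 higher. The list median was -0.12, and 26 of the 81 subunits lay above 0. Cox7a1, a cytochrome oxidase subunit of heart and muscle, fell the most of them, with 6.96 to 7.29 against 7.79 to 9.26 (-1.25 ± 0.26). Smox, which oxidises spermine, fell 2.29-fold (-1.19 ± 0.20, adjusted p 2.67e-03) among 17 genes of the urea cycle and polyamines, while Arg1 and Odc1 overlapped between the lines.

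Among detoxifying enzymes the families differed in their counts. Glutathione S-transferases had 5 of 23 called (21.7%), with Gstm1 (1.33 ± 0.36), Gstm5 (0.77 ± 0.18) and Mgst2 (0.67 ± 0.19) higher and Mgst1 (-0.92 ± 0.20) and Gstt3 (-0.52 ± 0.13) lower. Only the call of Mgst1 held in each fit without 1 array. Gstm1, Mgst2 and Gstt3 lost theirs in 6 fits each (adjusted p up to 0.0984, 0.109 and 0.0758) and Gstm5 in 2 (0.0619). Of 54 cytochromes P450 2 were higher (3.7%), and none of 20 glucuronosyl- and sulfotransferases was called in the limma fit (2 with an unadjusted p under 0.05). Cyp4f14, which hydroxylates leukotrienes and fatty acids, read 7.68, 7.64, 7.01 and 5.65 in 344SQ against 4.78, 4.14, 4.27 and 4.68, close to the floor, in 393P (2.53 ± 0.37, adjusted p 1.0e-03). Cyp1b1 rose by 1.10 ± 0.27, a call that ended without 344SQ replicates 3 or 4 or 393P replicate 3 (highest adjusted p 0.0753). Of 24 genes of iron, zinc and metallothioneins 4 were lower and 1 higher. Slc40a1, ferroportin, the exporter of iron, read 8.56, 8.88, 9.16 and 8.92 against 10.29, 10.15, 9.95 and 10.25, without overlap (-1.28 ± 0.21, adjusted p 2.39e-03). Lcn2 and Ltf, iron-binding proteins of neutrophils and mucosa, were lower by -1.25 ± 0.30 and -1.81 ± 0.49, and both lost their calls on leaving out any of 3 and 6 arrays (adjusted p up to 0.0548 and 0.0975). Neutrophil markers read 7.83 to 9.38 in 344SQ and 8.67 to 9.24 in 393P as a list, 1 of 14 called lower, and their part in the values of Lcn2 and Ltf was not tested.

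**Figure D3:**
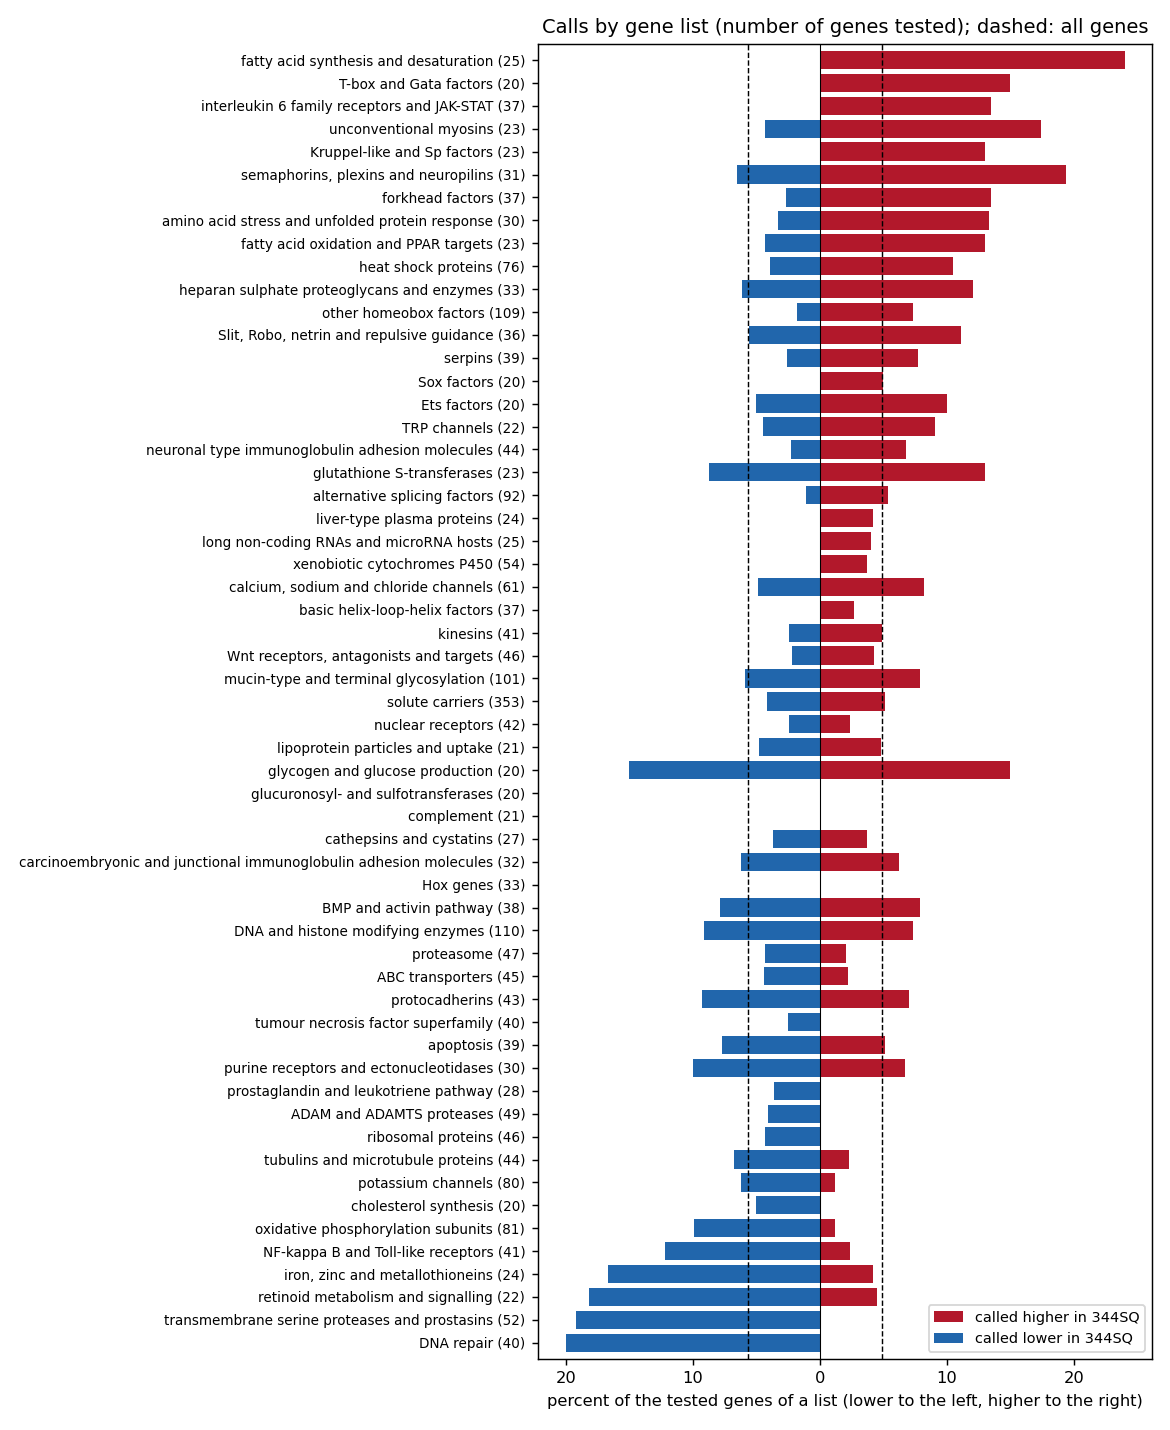
Percent of the tested genes of each list called higher (red, right) and lower (blue, left) in 344SQ, for the lists with at least 20 tested genes that are not markers of a cell type or lineage. Dashed lines mark the percentages over all genes, 4.86% higher and 5.62% lower; fatty acid synthesis stands out to the right, serine proteases and DNA repair to the left.

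Solute carriers as a family did not differ from the background: of 353 tested, 18 were higher and 15 lower (9.3%). Of the 4 choline-like transporters tested 3 were lower, Slc44a4 with 7.33, 7.30, 6.88 and 6.72 against 9.29, 9.57, 9.39 and 9.20, Slc44a3 with 7.80 to 8.63 against 9.77 to 10.32, and Slc44a1 with 9.68 to 10.25 against 11.18 to 11.37. Their changes were -2.31 ± 0.27, -1.60 ± 0.21 and -1.19 ± 0.20, and Slc44a2 was not called (-0.49 ± 0.22, adjusted p 0.208). Slc4a11, an ion transporter of epithelia and the cornea, read 8.94, 9.30, 9.17 and 9.61 against 11.20, 11.88, 11.90 and 11.36, 5.02-fold lower (-2.33 ± 0.22, adjusted p 4.75e-05). Slco3a1, an organic anion carrier, fell 4.71-fold (-2.24 ± 0.27), and both of its other probe sets gave -2.39. On the other side, Slc35e3, an orphan of the nucleotide sugar carriers, read 10.77, 10.44, 10.62 and 10.30 against 8.24, 8.42, 8.45 and 8.17, 4.64-fold higher (2.21 ± 0.12, adjusted p 5.60e-07). Slc26a2, the sulphate transporter that feeds proteoglycan synthesis, rose 3.71-fold (1.89 ± 0.20), and Slc7a7, an amino acid exchanger of gut and kidney, 2.35-fold (1.23 ± 0.20). None of the 8 called carriers had overlapping values.

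Of 80 potassium channel genes 5 were lower (6.2%, near the 5.62% of all genes) and 1 was higher, and 2 of 11 aquaporins were lower and none higher by limma (2 and 0 with an unadjusted p under 0.05). Kcnk5, an acid-sensing potassium channel of kidney epithelium, read 5.47, 5.97, 5.59 and 5.45 against 8.09, 8.90, 8.74 and 8.5 (7.65-fold, -2.94 ± 0.26). Aqp3, the glycerol and water channel of basolateral membranes, read 6.88, 7.06, 7.74 and 8.40 against 9.44, 10.26, 10.82 and 10.79 (7.0-fold, -2.81 ± 0.47). Clca3b, a protein of the chloride channel accessory family, read 4.96 to 5.76 against 7.91 to 9.85 (-3.60 ± 0.41), and Scnn1a, the alpha subunit of the epithelial sodium channel, 7.59 to 8.30 against 8.86 to 9.11 (-1.01 ± 0.16). No 344SQ value of these 4 genes reached the 393P range. Of 61 calcium, sodium and chloride channel genes 5 were higher and 3 lower (13.1%). The rises included the calcium channel genes Cacna1h (T-type, 1.65 ± 0.34) and Cacnb2 (a beta subunit, 1.16 ± 0.21), and also Ano10 and Clcn6. The other probe set of Cacna1h gave 0.12 (adjusted p 0.778). The connexin Gjb5 rose as well, with 7.92, 8.5, 7.75 and 9.72 against 5.40, 6.46, 5.82 and 6.13 (5.72-fold, 2.52 ± 0.38). Kcnab1, a beta subunit of potassium channels, rose by 1.39 ± 0.30. Of 45 ABC transporters Abca5 rose (1.13 ± 0.12), while Abcg5, part of a sterol exporter (-1.52 ± 0.31), and Abcc3 (-0.83 ± 0.24) fell, the call of Abcc3 being lost in 6 fits without 1 array (adjusted p up to 0.121).

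Genes on a list of transmembrane serine proteases and prostasins were lower in 344SQ wherever they were called. The list was matched by gene symbol and is not limited to surface proteins. Of its 52 genes, 10 were lower (19.2%) and none higher by limma (14 and 2 with an unadjusted p under 0.05), with a list median of -0.15. In each fit that left out 1 array 8 of the 10 kept their call, among them Htra2, which the apoptosis list also holds. Prss22, tryptase epsilon, read 9.17, 10.13, 10.14 and 10.97 in 344SQ and 12, 12.86, 12.61 and 12.30 in 393P. Hpn, hepsin, which cleaves pro-hepatocyte growth factor, read 8.21, 7.91, 7.69 and 7.43 against 9.37, 9.75, 9.80 and 10.16. Prss8, prostasin, which activates the sodium channel, read 7.20, 7.49, 7.85 and 7.60 against 8.49, 9.16, 9.44 and 9.34. Each 344SQ array lay below each 393P array, with changes of -2.34 ± 0.32 (adjusted p 7.21e-04), -1.96 ± 0.27 (adjusted p 7.88e-04) and -1.57 ± 0.23 (adjusted p 9.60e-04). Tmprss4 (-1.57 ± 0.15), Prss27 (-1.42 ± 0.23) and Prss16, a thymus protease (-1.42 ± 0.26), followed.

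Protease inhibitors moved in both directions. Of 39 serpins, Serpinb5 was the only fall and 3 rose. Serpinb1a, an inhibitor of neutrophil elastase, read 9.47, 8.79, 8.77 and 7.62 against 7.25, 6.51, 5.80 and 6.65, without overlap (2.11 ± 0.40, adjusted p 5.96e-03). Serpinb2, an inhibitor of urokinase, read 7.53, 8.79, 9.45 and 9.02 against 7.09, 6.48, 6.43 and 7.23 (1.89 ± 0.49), a call lost on leaving out any of 5 arrays (adjusted p up to 0.0868). The matrix proteases of the ADAM and ADAMTS families had 2 of 49 lower, Adamts1 by -0.96 ± 0.19, and none higher by limma (2 and 4 with an unadjusted p under 0.05). Of 11 annexins, calcium-dependent membrane binders, Anxa8 rose 3.31-fold along with Anxa10 (12.21 to 12.81 against 10.44 to 10.97, 1.73 ± 0.22), while Anxa6 (-1.01 ± 0.21) and Anxa9 (-0.59 ± 0.14) fell, the latter not called without 393P replicate 3 (adjusted p 0.0520).

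Several transcription factors of the foregut and of mesenchyme were higher in 344SQ. Of 37 forkhead genes 5 were called higher and 1 lower, Foxa2 rising the most (29.7-fold, 4.89 ± 0.44). Foxf2, a forkhead factor of gut and lung mesenchyme, read 7.61, 7.20, 7.84 and 6.70 against 5.14, 5.39, 5.24 and 5.34 (2.06 ± 0.29, adjusted p 7.88e-04), though its dimmer probe set gave -0.01. Of 109 homeobox genes outside the Hox clusters 8 were higher and 2 lower (9.2%). Hhex, which sets up liver and pancreas buds, read 11.40, 11.52, 11.33 and 10.64 against 9.87, 9.22, 9.05 and 8.88 (3.90-fold, 1.97 ± 0.25). Irx5, the neighbour of Irx3, read 10.37, 10.11, 10.45 and 10.66 against 7.53, 7.51, 7.56 and 7.30 (7.59-fold, 2.92 ± 0.34). Prrx2, a factor of limb and head mesenchyme, rose 3.51-fold (1.81 ± 0.31) and Meis3 fell 3.26-fold (-1.71 ± 0.20). Values of the 2 lines overlapped in none of these.

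Hox genes themselves had none of 33 called in the limma fit (median 0.09; 5 with an unadjusted p under 0.05). Hnf4a, the liver and gut nuclear receptor, read 12.31, 12.33, 12.55 and 12.38 against 10.64, 10.82, 10.22 and 10.78, 3.43-fold higher (1.78 ± 0.45, adjusted p 0.0260), with narrow groups far apart. Its call nevertheless ended on leaving out any of the 8 arrays (adjusted p up to 0.0769): the spread of the fit also holds the 393LN arrays, which ranged from 8.71 to 11.48. Gata6, a factor of endoderm, rose 3.57-fold (1.84 ± 0.27), and Gata4 and Gata5 were called higher by 0.82 ± 0.19 and 0.58 ± 0.15 with overlapping values, calls that ended without 2 and 5 arrays (highest adjusted p 0.0542 and 0.0872). The dimmer probe set of Gata5, with a mean of 6.87, gave a larger rise of 2.20 ± 0.31 (adjusted p 1.31e-03). That of Gata4, with a mean of 4.09, gave -0.005 (adjusted p 0.987). Klf5, of gut crypts and alveolar cells, rose by 0.71 ± 0.15 at a high level, and Klf12 by 1.81 ± 0.24. Elf3, an Ets factor of differentiated epithelium, read 9.75, 9.74, 9.59 and 9.98 against 10.19, 11.81, 11.43 and 11.61 (2.82-fold lower, -1.49 ± 0.30). Ehf, its close relative, gave -0.05 (adjusted p 0.842) on its brightest probe set but -3.35 (adjusted p 7.7e-06) and -3.89 (adjusted p 1.5e-05) on 2 others and -0.27 on the last, so that the answer for this gene depended on the probe set.

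In the BMP pathway the ligand Bmp4 rose, while the ligands Bmp7 and Bmp8b fell. The call of Bmp8b held in each fit without 1 array. Bmp4, a ligand of foregut and mesenchyme, read 11.26, 11.05, 10.40 and 9.32 in 344SQ and 8.70, 8.56, 8.60 and 7.71 in 393P (4.32-fold, 2.11 ± 0.42, adjusted p 7.11e-03). Bmp7, a ligand of epithelia, read 5.89, 8.09, 9.07 and 9.38 against 10.82, 10.52, 9.96 and 10.10 (4.73-fold lower, -2.24 ± 0.59, adjusted p 0.0309), and the call ended on leaving out any of 5 arrays (adjusted p up to 0.0754). Neither pair overlapped, but the 344SQ arrays differed widely, replicate 4 being lowest for Bmp4 and replicate 1 for Bmp7. Among receptors and regulators, Bmpr2, the type II receptor, rose on its brightest probe set (11.80 to 12.08 against 11.20 to 11.34, 0.68 ± 0.12), and Smurf1, a ubiquitin ligase that removes BMP signal carriers, fell (-1.12 ± 0.17). The dimmer probe sets of Bmpr2 gave -0.16 (adjusted p 0.74) and 0.34 (adjusted p 0.554). In all, 3 of 38 genes were higher and 3 lower (15.8%).

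Hedgehog genes had 3 of 15 higher and none lower by limma (4 and 0 with an unadjusted p under 0.05; median 0.22). Shh, the ligand Sonic hedgehog, read 8.73, 8.51, 8.98 and 8.26 against 7.48, 7.64, 7.01 and 7.31, without overlap (2.39-fold, 1.26 ± 0.18, adjusted p 8.44e-04). Gas1, a co-receptor (0.89 ± 0.23), and Sufu, an inhibitor (0.61), lost their calls on leaving out any of 5 and 8 arrays (adjusted p up to 0.0881 and 0.123). Among 46 Wnt receptors, antagonists and targets, Wif1, a secreted Wnt inhibitor, rose (1.02 ± 0.23), and Fzd6, a receptor of planar polarity, fell with 8.74 to 9.83 against 10.39 to 10.83 (-1.07 ± 0.23). Of 37 genes of the interleukin 6 family and JAK-STAT signalling 5 were higher and none lower by limma (9 and 2 with an unadjusted p under 0.05). Il11, a cytokine of the family, read 7.32, 8.14, 8.10 and 8.32 against 6.90, 6.43, 6.85 and 6.36 (2.52-fold, 1.34 ± 0.22), and Socs2, a feedback inhibitor of cytokine receptors, 11.69, 11.50, 11.73 and 11.23 against 8.74, 10.67, 9.98 and 9.76 (3.35-fold, 1.75 ± 0.32). Irs2, the insulin receptor substrate, was the only call among 18 genes of the insulin-like growth factor axis, at 1.30 ± 0.29.

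Of 41 NF-kappa B and Toll-like receptor genes 5 fell (12.2%) and 1 rose, with a median of -0.15. Tlr3, the receptor of double-stranded RNA, read 9.03, 8.48, 8.39 and 8.02 in 344SQ and 10.01, 10.04, 10.15 and 10.11 in 393P, where the 4 arrays agreed closely (3.03-fold lower, -1.60 ± 0.20, adjusted p 3.47e-04). Casp1, the inflammasome protease, fell by 0.90 and Bid, which carries death receptor signals to mitochondria, read 9.38, 8.88, 9.06 and 8.93 against 10.32, 11.07, 11.16 and 10.93 (3.50-fold lower, -1.81 ± 0.20). Cideb, a lipid droplet and lipoprotein protein of liver and gut, rose 3.73-fold (9.15 to 9.40 against 7.21 to 7.57, 1.90 ± 0.18). Of 40 TNF superfamily genes only Tnfrsf18 was called, lower (-0.96).

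Extracellular purines are signals that ectoenzymes break down in steps from ATP to adenosine and inosine. Entpd3, which hydrolyses ATP, read 6.55, 6.20, 6.23 and 6.43 against 8.03, 8.79, 8.96 and 8.5 (4.65-fold lower, -2.22 ± 0.34). P2ry1, a receptor of ADP, read 5.11, 4.53, 4.87 and 5.01, near the floor, against 6.68, 7.36, 7.07 and 7.24 (-2.21 ± 0.35). Nt5e, CD73, which forms adenosine, was higher, with 12.93, 12.70, 12.43 and 12.50 against 11.24, 11.87, 11.47 and 11.29 (1.18 ± 0.28, adjusted p 0.0193), and Ada, which removes adenosine, lower, with 8.22, 8.08, 8.71 and 7.68 against 8.81, 9.65, 9.69 and 9.24 (-1.18 ± 0.30, adjusted p 0.0261). No pair overlapped. The calls of Nt5e and Ada ended on leaving out any of 3 and 6 arrays (adjusted p up to 0.0556 and 0.0796). In the list of 30 purine receptors and ectonucleotidases 2 were higher and 3 lower.

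Guidance molecules of axons and vessels were called more often than all genes, 8 of 31 semaphorins, plexins and neuropilins (25.8%; 6 higher, 2 lower). Sema4g read 9.23, 9.57, 9.41 and 8.60 against 6.89, 7.68, 7.66 and 7.30 (3.53-fold higher, 1.82 ± 0.29). Plxna2, Sema3e and Sema6d rose by 0.95, 0.85 and 1.01, while Sema4d and Sema7a, which act on immune cells, fell by 0.93 and 0.72. The dimmer probe sets of Sema6d gave 0.01, 0.11 and -0.13, none of them called. Dpysl2 and Dpysl3, collapsin response mediators that act downstream of semaphorins, rose together, Dpysl2 with 12.70 to 12.97 against 11.54 to 12.04 (1.10 ± 0.16) and Dpysl3 with 10.25 to 10.81 against 8.71 to 9.47 (1.42 ± 0.27). Genes of neurons and endocrine cells were among the rises too. Npy, a neuropeptide, read 7.82, 10.03, 9.61 and 10.74 against 7.39, 6.97, 7.01 and 7.17 (5.33-fold, 2.42 ± 0.45), and Cck, cholecystokinin, 8.38, 6.87, 6.73 and 5.62 against 5.21, 5.31, 4.20 and 4.6 (4.20-fold, 2.07 ± 0.46). Neither overlapped, but both varied widely among the 344SQ arrays, with replicate 1 lowest for Npy and highest for Cck. Of 31 neuroendocrine and gut hormone genes 4 were higher and none lower by limma (5 and 1 with an unadjusted p under 0.05), with a median of -0.01. Schwann cell and nerve markers, another source of neural genes, had 1 of 10 higher (Ncam1) and 2 lower.

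Adhesion molecules of the neural immunoglobulin type rose in 3 of 44 cases and fell in 1. Ncam1 read 11.23, 10.77, 10.96 and 11.55 in 344SQ and 9.93, 8.90, 8.11 and 8.16 in 393P (5.11-fold, 2.35 ± 0.43). Ntm, neurotrimin, read 9.78, 8.89, 9.07 and 8.07 against 5.71, 6.09, 6.53 and 6.41 (6.79-fold, 2.76 ± 0.30). Igsf9, a homologue of the fly protein turtle, read 7.71, 7.77, 7.93 and 6.25 against 9.12, 9.78, 9.73 and 9.65 (4.45-fold lower, -2.15 ± 0.32). All 3 were without overlap. Of 43 protocadherins and related cadherins 3 were higher and 4 lower (16.3%). Celsr1, a cadherin of planar polarity (-1.78 ± 0.39), its relative Celsr2 (-0.52 ± 0.13), Pcdh19 (-0.80 ± 0.11) and Pcdh9 (-0.69 ± 0.16) fell, and the clustered Pcdhb17 (1.88 ± 0.24), Pcdhb7 (1.06 ± 0.16) and Pcdhb22 (0.60 ± 0.12) rose. The call of Celsr2 ended in 4 of the fits without 1 array (adjusted p up to 0.0601). The Pcdhb genes are near-identical copies in a row, and probe sets may share signal between them.

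Of 101 glycosylation enzymes 8 were higher and 6 lower (13.9%). B4galt6, which makes lactosylceramide, read 12.34, 12.31, 12.26 and 12.24 against 10.13, 9.92, 9.60 and 10.27 (4.96-fold higher, 2.31 ± 0.22, adjusted p 5.32e-05), and each of its other 3 probe sets rose. Gcnt3, the core-branching enzyme of mucins, read 11.87, 12.48, 12.04 and 12.09 against 10.38, 9.86, 10.51 and 10.88 (3.28-fold higher, 1.71 ± 0.27). Galnt3 and Galnt7, which start and extend O-glycans, were lower, Galnt3 with 9.82 to 10.57 against 11.63 to 11.88 (-1.51 ± 0.18) and Galnt7 with 9.35 to 10.04 against 10.67 to 11.06 (-1.17 ± 0.17). Galnt4, of the same family, rose by 0.51 ± 0.13, a call that 6 of the fits without 1 array did not give (adjusted p up to 0.0780). All 6 falls, and 2 of the 8 rises, kept their call in each fit without 1 array. Among heparan sulphate proteoglycans Gpc1, glypican 1, rose by 1.28 ± 0.27 (11.25 to 11.66 against 9.38 to 10.63).

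Single genes of the cytoskeleton changed in either direction. Map7, which stabilises microtubules in epithelia, read 7.18, 7.84, 7.72 and 7.49 against 9.88, 9.90, 10.14 and 10.06 (5.42-fold lower, -2.44 ± 0.18, adjusted p 9.07e-06). Myo5a, a vesicle motor, read 9.22, 9.03, 9.17 and 9.45 against 8.14, 8.12, 8.21 and 8.17 (1.06 ± 0.11), and the kinesin Kif5c rose by 1.36 ± 0.31. Fhod1, a formin, rose by 1.06 ± 0.13.

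Genes of DNA repair were lower wherever they were called: 8 of 40 fell (20%) and none rose by limma (14 and 3 with an unadjusted p under 0.05), with a median of -0.13. Ung, which removes uracil from DNA, read 7.83, 8.47, 8.5 and 8.21 in 344SQ and 9.59, 9.06, 8.96 and 9.14 in 393P (1.91-fold lower, -0.94 ± 0.18, adjusted p 7.24e-03). Lig1, the replicative ligase, read 9.86, 9.97, 10.12 and 10.16 against 10.55, 10.51, 10.63 and 10.49 (-0.52 ± 0.11), Chek2, a damage kinase, 8.13 to 8.48 against 8.77 to 8.95 (-0.56 ± 0.11), and Pms2, of mismatch repair, 7.90 to 8.35 against 8.56 to 8.86 (-0.57 ± 0.13). The groups were apart in each, but the last 3 differed by folds of only 1.47 (Chek2), 1.48 (Pms2) and 1.43 (Lig1). Pms2 gave 0.23 and 0.06 on its dimmer probe sets. Msh6 (highest adjusted p 0.0695), Xrcc6 (0.0702), Blm (0.107) and Polb (0.109) lost their calls without any of 5, 4, 6 and 7 arrays. Ung, Chek2 and Pms2 lie on chromosome 5, where the genes of 344SQ read lower in general, as described below.

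Chromatin genes went both ways, 8 higher and 10 lower of 110. Within the Polycomb repressive complex, Bmi1 rose (10.89, 10.98, 10.97 and 11.13 against 9.84, 9.89, 9.91 and 10.05, 1.07 ± 0.12, adjusted p 1.63e-04) and so did Phc3 (0.57 ± 0.12), although its other probe set gave -0.07 (adjusted p 0.925). Phc1, its paralogue, fell (9.0, 8.97, 9.21 and 9.15 against 10.03, 9.94, 9.94 and 9.99, -0.90 ± 0.12, adjusted p 6.58e-04). The arrays of each line lay close together for Bmi1 and Phc1. Prdm8 fell 4.27-fold (-2.10 ± 0.40) and Hdac5 rose 1.95-fold (0.96 ± 0.15). Of 92 splicing factors 5 were higher and 1, Esrp1, lower. Celf4, a splicing factor of neurons, read 9.72, 9.70, 9.81 and 9.41 against 8.56, 7.22, 7.05 and 7.71 (4.06-fold, 2.02 ± 0.34), and Msi1, a translational regulator of neural stem cells, rose by 1.11 ± 0.23. Of 46 ribosomal protein genes only Rpl12 and Rps4l were called (4.3%), and Rpl12 lost its call without 393P replicate 3 (highest adjusted p 0.0547). Rps4l, a paralogue of the ribosomal protein gene Rps4x, read 7.09, 7.36, 7.80 and 7.13 against 11.33, 10.78, 10.90 and 10.53 (11.7-fold lower, -3.54 ± 0.44), though its probe set may share signal with near-identical copies.

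Protein folding genes of the endoplasmic reticulum rose in part. Of 30 genes of amino acid stress and the unfolded protein response 4 were higher and 1 lower. Herpud1, a membrane part of the degradation complex, read 12.04, 11.52, 11.72 and 11.71 against 10.42, 11.10, 10.62 and 11 (1.94-fold, 0.96 ± 0.18), and Dnajb9, a co-chaperone of BiP, 11.43 to 11.69 against 10.60 to 11.19 (0.70 ± 0.15). Both kept their call without any 1 array, while Dnajc3 (0.70 ± 0.17) and Ern1 (0.56) lost theirs on leaving out any of 5 and 4 arrays (adjusted p up to 0.0657 and 0.0776). Dnajc22 read 9.90, 10.39, 10.23 and 10.11 against 7.13, 7.54, 7.71 and 7.92 (5.98-fold, 2.58 ± 0.45), and Dnajb4 and Dnajb14 rose by 1.22 ± 0.18 and 1.31 ± 0.20. In all 8 of 76 heat shock and DnaJ genes were higher and 3 lower (14.5%).

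Markers of host cells were read on the same arrays, since a change in the cell mixture would touch the values above. Macrophage markers had 4 of 21 lower and none higher by limma (11 and 2 with an unadjusted p under 0.05), with a median of -0.65 and mean levels of 9.67 to 10.57 on the 344SQ arrays and 10.41 to 10.92 on those of 393P. Aif1 read 8.73, 8.42, 8.48 and 7.99 against 9.77, 9.89, 9.61 and 9.38 (-1.26 ± 0.18), and Tyrobp, an adaptor of myeloid receptors, 11.42, 11.01, 11.29 and 10.79 against 12.16, 12.18, 11.81 and 12.05 (-0.92 ± 0.17). Adgre1, the F4/80 antigen (-0.67 ± 0.28), and Csf1r (-0.84 ± 0.30) did not pass, and Ly86 and Cd14 lost their calls on leaving out any of 7 and 6 arrays (adjusted p up to 0.118 and 0.109). Slc40a1, Apoc1, Casp1 and Tlr3 are genes that macrophages can also express, and the part of macrophages in their values was not tested.

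Mcpt2, a mast cell protease, rose the most among the markers of host cells. It read 12.98, 13.10, 13.03 and 13.01 in 344SQ and 9.76, 11.17, 10.88 and 9.50 in 393P (6.52-fold, 2.71 ± 0.44, adjusted p 2.08e-03), and Mcpt1 12.21, 12.10, 12.46 and 11.07 against 9.28, 10.98, 10.71 and 9.08 (3.86-fold, 1.95 ± 0.43). These proteases belong to mucosal mast cells, and the 393P arrays fell into a higher and a lower pair for both. No other mast cell marker was called higher. Cpa3, the carboxypeptidase of mast cells, read 8.70, 9.09, 8.68 and 6.58 against 7.53, 8.23, 8.05 and 7.27, above every 393P value on 3 arrays and below them on replicate 4 (0.49 ± 0.44, adjusted p 0.575). Hdc, which makes histamine, was lower (-0.89 ± 0.24), a call lost on leaving out any of 6 arrays (adjusted p up to 0.0913). Over the 12 markers 2 were higher and 1 lower, 9 lay above 0, and the median was 0.40 with mean levels of 8.06 to 9.08 and 7.85 to 8.42. Fibroblast markers had none of 19 called by limma (6 with an unadjusted p under 0.05), a median of 0.35 and levels of 10.69 to 10.98 against 10.25 to 10.71. Endothelial cells (1 of 19 higher, 8.98 to 9.45 against 8.82 to 9.30), T and NK cells (1 of 20 higher, 6.92 to 7.86 against 7.18 to 7.80) and B and plasma cells (none of 14 called by limma, 1 with an unadjusted p under 0.05) overlapped in level. Of red blood cell and platelet markers Ppbp, a platelet chemokine, was lower on all 344SQ arrays (7.36, 9.51, 9.47 and 9.32 against 10.62, 11.22, 10.90 and 11.12, -2.05 ± 0.46), the only call of 11. Of 13 markers of alveolar type 2 cells 1 was called higher, Sftpb, and 1 lower, Sftpd, which fell by 1.37. Both are surfactant proteins, so these calls went in opposite directions. Markers of smooth muscle and pericytes had 2 of 14 lower, Notch3 (-0.66 ± 0.13) and Actg2 (-1.13 ± 0.30), none of the 14 lay above 0, and their median was -0.33, with mean levels of 8.15 to 8.54 against 8.35 to 9.05. Markers of skin keratinocytes had 3 of 18 lower, Krt6a (-3.76 ± 0.64), Ivl (-1.97 ± 0.25) and Lor (-1.03 ± 0.30), with 3 of the 18 above 0, a median of -0.15 and levels of 6.78 to 8.0 against 7.22 to 8.77. Leaving out 1 array ended the calls of Actg2 (5 arrays, adjusted p up to 0.0905) and Lor (all 8, 0.122). Neither list had a gene called higher by limma, with 0 and 0 higher at an unadjusted p under 0.05. Cers3 and Ly6d, large falls given above, are genes that keratinocytes also express, and the part of these cells in their values was not tested.

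Calls were unevenly placed along the genome. Over 18029 genes with a known chromosome 4.89% were higher and 5.64% lower in 344SQ, but on chromosome 6 131 of 992 genes were lower (13.2%) and 26 higher, on chromosome 15 85 of 724 were lower (11.7%) and 20 higher, and on chromosome 5 113 of 1122 were lower (10.1%) and 36 higher. Chromosome 18 went the other way, with 49 of 459 higher (10.7%) and 17 lower, and chromosome 3 had 74 of 913 higher (8.11%) and 38 lower. On chromosome X 41 of 617 were higher (6.65%) and 12 lower. The shift was small and broad: among genes outside the lowest 40% of group means the median change was -0.190 on chromosome 6, -0.148 on 5 and -0.133 on 15, and 0.169 on chromosome 18 and 0.102 on X. Xist, the RNA that silences an X chromosome in female cells, read 11.94, 11.03, 6.82 and 10.69 in 344SQ and 7.04, 6.83, 7.35 and 10.92 in 393P, high on 3 arrays of the former and on 1 of the latter (2.09 ± 1.05, adjusted p 0.261). The labels give no sex of the mice, and the part of sex in these values was not tested. Each array was then centred on all such genes. The median of chromosome 15 was -0.088 to -0.076 on the 344SQ arrays and 0.058 to 0.098 on the 393P arrays, that of chromosome 6 -0.131 to -0.035 against 0.069 to 0.105, and that of chromosome 18 0.056 to 0.131 against -0.103 to -0.072. The 4 arrays of each line did not overlap on 10 chromosomes (3, 5, 6, 7, 8, 9, 10, 15, 17 and 18). On some of these the gap was very narrow. The lowest 344SQ median of chromosome 3 was -0.031 and the highest of 393P -0.033. On chromosome 17 the highest of 344SQ was -0.024 and the lowest of 393P -0.019. Under the alternative settings the median changes ranged from -0.164 to -0.117 on chromosome 5, from -0.210 to -0.151 on 6, from -0.206 to -0.120 on 15 and from 0.138 to 0.195 on 18. DNA was not measured, so whether copy number differs between the lines was not tested.

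**Figure D4:**
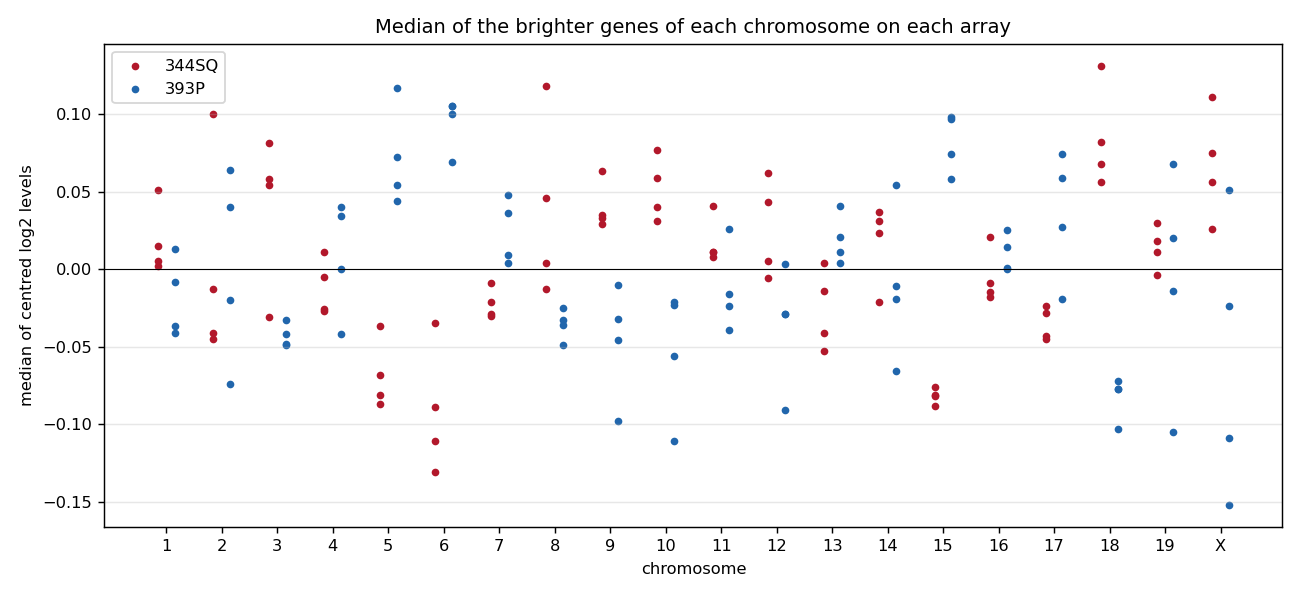
Median over the brighter genes of each chromosome, per array, after centring (log2), for 4 arrays of 344SQ (red) and 4 of 393P (blue). Chromosomes 5, 6 and 15 are lower on all 344SQ arrays, 10 and 18 higher; the number of genes is 270 or more on each chromosome shown.

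By the gene order of GRCm38.p6, 16 runs of at least 3 neighbouring tested genes were called in 1 direction. The longest, Mrpl35, Immt, Ptcd3 and Polr1a on chromosome 6, holds 3 mitochondrial genes and a subunit of RNA polymerase I and was lower with a median of -0.68. Lgi4, Fxyd3 and Hpn on chromosome 7 were lower (median -1.96), as were Pigr, Fcmr and Il24 on chromosome 1 (-1.62) and Rad18, Srgap3 and Thumpd3 on chromosome 6 (-1.12). Higher runs were Tm4sf1, Tm4sf4 and Wwtr1, the Hippo effector TAZ, on chromosome 3 (1.0), Col6a2, Col6a1 and Pcbp3 on chromosome 10 (1.02), Ptgfrn, Cd2 and Igsf3 on chromosome 3 (0.94) and Msi1, Pla2g1b and Sirt4 on chromosome 5 (1.11). The last ran against the shift of chromosome 5. Leaving out any of 7 arrays ended the calls of Mrpl35 (highest adjusted p 0.0736), Srgap3 (0.0879) and Sirt4 (0.126), and leaving out 344SQ replicate 2 that of Fcmr (0.0512).

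The neighbourhood of Cdkn2a, which encodes the cell cycle inhibitors p16 and p19Arf, dropped on 1 array of 344SQ, and several of its genes were also lower on the other 3. They were chosen after their values were seen. Cdkn2a read 12.16, 12.06 and 12.51 on 344SQ replicates 1 to 3 and 5.88 on replicate 4, against 12.97, 12.97, 13.04 and 13.02 in 393P. Cdkn2b, which encodes p15, read 11.18, 11.14 and 11.27 and then 7.47, and Mtap, of methionine salvage, 11.09, 11.42 and 11.52 and then 8.0. On replicate 4 all 3 were thus more than 8-fold below the other arrays of the line, a step that no 393P array showed. On replicates 1 to 3 they already lay below every 393P array, the median of these replicates minus the 393P mean being -0.84 for Cdkn2a, -1.01 for Cdkn2b and -0.57 for Mtap. None of the 3 was called between the lines in the fit over all arrays (adjusted p 0.233, 0.0969 and 0.153). Neighbours on the far side of Cdkn2b dropped as well on replicate 4, Caap1 to 4.92 from 7.66 to 7.72 and Plaa to 8.06 from 9.98 to 10.22. Tusc1 (-1.24 ± 0.26), Plaa (-1.56 ± 0.38) and Ift74 (-1.28 ± 0.35) were called lower between the lines, though leaving out any of 3 arrays ended the call of Plaa (adjusted p up to 0.0572) and any of 5 that of Ift74 (0.0954). By contrast, Klhl9 and Focad, on the other side, read 11.85 and 8.54 on replicate 4 against 11.94 to 12.26 and 8.25 to 8.47 on the other 3, and Elavl2, next to Cdkn2b, 8.28 against 8.08 to 8.43. Some genes farther along the same stretch were already low on replicates 1 to 3: Hook1, Jun, Fggy, Ak4, Patj and Pgm1 were called lower between the lines, with changes of -3.63, -1.67, -1.45, -1.0, -0.73 and -1.53, and Efcab7 with -1.96. Other tested genes that lie among them were not called. A few of those were higher on replicates 1 to 3, with a median up to 0.97 above the 393P mean. Whether part of the chromosome is lost in the cells of this tumour was not tested.

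**Figure D5:**
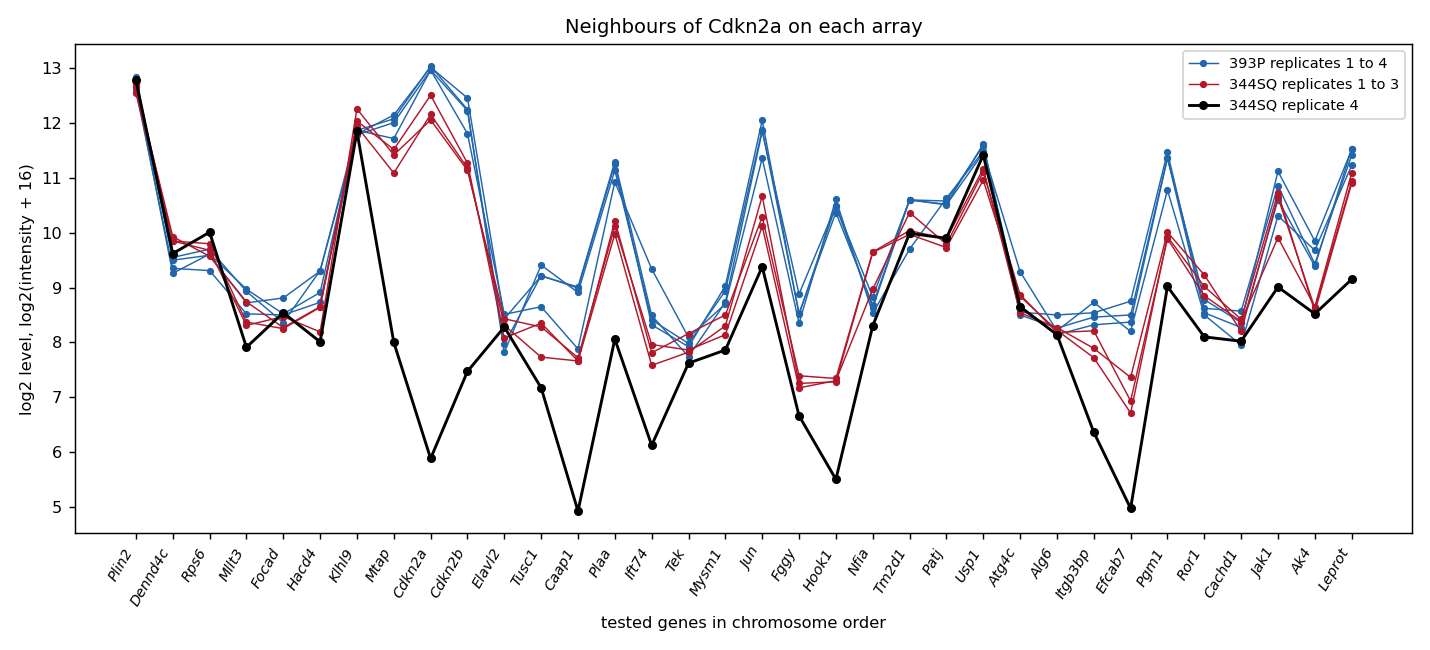
Log2 level of the tested genes from 8 before to 25 after Cdkn2a in the gene order of chromosome 4, one line for each array (344SQ replicate 4 in black, other 344SQ arrays red, 393P arrays blue). The black line leaves the red lines at Mtap, Cdkn2a and Cdkn2b and again at several genes to the right.

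Other arrays carried sets of their own as well, here chosen after their values were seen. On 344SQ replicate 3, B cell and fat genes were at least 4-fold above the other 3 arrays of the line: Cd79b read 8.72 against 4.88 to 5.66, and Adipoq, adiponectin, 10.88 against 6.13 to 7.59. On 344SQ replicate 1, interferon-induced and keratinocyte genes were, among them Gbp6 (11.79 against 5.93 to 9.18) and Krt1 (7.94 against 5.69 to 5.88). Interferon-induced genes also stood low on 344SQ replicate 4: Iigp1, a guanosine triphosphatase, read 13.54, 11.58, 10.72 and 7.51 on replicates 1 to 4, Cxcl9, a chemokine, 11.56, 10.56, 8.73 and 5.63, and Ifit1 10.28, 9.16, 8.51 and 6.08. No gene reached this distance upward or downward on 344SQ replicate 2, and 21, 14 and 8 genes did so upward on replicates 1, 3 and 4. In 393P, replicate 1 had 14 genes at least 4-fold below the others and replicate 2 had 13 above.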

How the data were processed

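Total RNA of the tumours was hybridised as biotin-labelled cRNA to Affymetrix mouse arrays, per the labels' protocols. The deposited values are intensities summarised per probe set on a linear scale. The software, and any scaling of the arrays by the authors, are not stated in the labels. Probe sets with 1 gene symbol in the platform annotation were kept, log2(intensity + 16) was taken, and each of 18193 genes was read from its probe set with the highest mean. A mean per line was fitted to all 12 arrays with limma 3.58.1 in R 4.3.3 (lmFit, eBayes; 9 residual degrees of freedom). The contrast was 344SQ minus 393P, p-values were adjusted over all genes by the method of Benjamini and Hochberg, and adjusted values under 0.05 were called. The script was tested on simulated data. The precision is limited by 4 arrays a line.

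The genes and lists were chosen with earlier results of these data known. Named were the 30 largest rises and the 30 largest falls among called genes with no overlap of the lines' values and the higher group mean outside the lowest 40% of group means, skipping unnamed transcripts; called members of a list; the first 3 genes of each list written out by name; a few lineage and marker genes; and genes in runs of neighbours. Any other gene is marked where it stands. Overlap of values and single arrays were judged on unrounded values. Alternatives were quantile normalisation, median centring, a pseudocount of 1 or 64, filters that drop the dimmest 25% or 50% of genes, the mean of a gene's probe sets or the one with the largest spread, the 8 arrays of both lines alone, a trended and robust prior, and leaving out each array. Some items are not reported here.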

Additional observations from a re-analysis of the deposited data

Results flagged for a closer look

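Among the 4 arrays of each line, 1 array stood far from the other 3 in 47 of 518 sets of values of the genes named in the text, by Dixon's ratio of the gap to the range (above the critical value for 4 samples). The sets leave out Ano10, Bmp8b, Clcn6, Htra2 and Sftpb. Chance gives about 1 set in 20, but some of these genes were named because 1 array stood apart, so the count is not set against it. All values here are log2 levels. The arrays concerned most often were 344SQ replicate 4, with 14 genes, and 393P replicate 1, with 13.

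On 344SQ replicate 4, the genes of the Cdkn2a neighbourhood on chromosome 4 were the low value of their line: Cdkn2a at 5.88 (the other 3 arrays at 12.06 to 12.51), Cdkn2b at 7.47, Mtap at 8.0, Caap1 at 4.92, Plaa at 8.06 and Hook1 at 5.50. The same array was lowest for Cpa3 (6.58), Dpysl2 (12.70), Igsf3 (10.72), Igsf9 (6.25), Pgm1 (9.02), Slc44a1 (9.68) and Wwtr1 (12.28). It was highest for Cldn6, at 12.30 against 6.93 to 7.48 on the other 3 arrays.

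393P replicate 1 was lowest of its line for the epithelial genes Krt8 (13.77), Rab25 (11.49) and Serpinb5 (10.02), and for Abca5 (8.51), Caap1 (7.88), Cxcl9 (9.38), Pgm1 (10.78) and Sema3e (9.38). It was highest for Fhod1 (9.06), Ift74 (9.34), Pdx1 (7.12), Pms2 (8.86) and Slc44a3 (10.32).

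On 344SQ replicate 1, Krt1 (7.94), Nkx2-1 (4.57), Polb (10.18) and Wif1 (7.13) were high, and Fzd6 (8.74) and Ppbp (7.36) were low. On 344SQ replicate 2, Anxa6 was low (10.46). On 344SQ replicate 3, Fcmr (8.5) and Mapk13 (6.98) were high. On 393P replicate 2, the macrophage genes Adgre1 (10.99) and Ly86 (10.32) were high. On 393P replicate 3, Krt1 was high (8.23), and Gyg (10.29) and Srgap3 (9.65) were low. On 393P replicate 4, Xist (10.92), Mgst1 (12.70) and Nkx2-1 (4.31, close to the floor) were high, and Bmp4 (7.71), Crabp2 (5.97) and Sufu (8.41) were low.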

How the results depend on the processing

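No paired analysis was possible because the labels give the tumours of the lines no shared replicate numbers. In the 10 alternatives that keep all arrays of both lines, the counts of higher genes (773 to 998) and of lower genes (865 to 1131) stayed within 1.5 times those reported. Leaving out the dimmest 50% of genes brought the genes changed at least 2-fold from 639 to 422, with fewer genes tested. Leaving out 1 array gave 565 to 872 higher genes, lowest without 344SQ replicate 3 and next without 344SQ replicate 2 (581). It gave 654 to 1053 lower genes, lowest without 393P replicate 3 and next without 393P replicate 2 (664). The genes changed at least 2-fold then numbered 569 to 641, and those without overlap between the lines 3408 to 4446, which grows with fewer arrays by construction. Leaving out 344SQ replicate 4 and 393P replicate 1 together, chosen after seeing the data, gave 864 higher and 932 lower genes. Of 229 called genes named in the text, which leave out Ano10, Bmp8b, Clcn6, Htra2 and Sftpb, 181 kept their call in each of the 8 fits without 1 array, and 165 in every other alternative. With the probe set of the largest spread, the sign turned for Ern1 (-0.08), Phc3 (-0.07), Pms2 (0.23) and Mrpl35 (0.2), and with the mean of the probe sets for Mrpl35 (0.06). Of 118 called named genes with other probe sets, again without the genes left out above, 64 had another that was called in the same direction. Another called in the opposite direction was found for 0 of them. The share of promoter windows with an E-box among genes at least 4-fold lower ranged from 39.4% to 51.8% over the alternatives. With 4 arrays a line, a change that was not called may still exist, and the pseudocount compresses the folds of dim genes.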
